A study of Rattus norvegicus with 20 samples.

Results

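The miR-30 family was examined in small RNA sequencing libraries from 20 Sprague-Dawley rats. The tissue was the adBNST, the anterodorsal part of a forebrain nucleus, the bed nucleus of the stria terminalis, that is studied for its role in anxiety. Members were taken by name as the 5p arms rno-miR-30a-5p, rno-miR-30b-5p, rno-miR-30c-5p, rno-miR-30d-5p and rno-miR-30e-5p, written without the species prefix from here on, which gave 5 of the 617 miRNAs with reads. From weaning on postnatal day 21, each rat was kept for 6 weeks, alone for social isolation (SI) or in a cage of 3 littermates of its own sex for group housing (GH). They were tested in the elevated plus maze at 9 weeks of age and killed, and the adBNST was punched from the frozen brain, so every group had been through the maze. Each combination of housing and sex had 5 rats, with 1 library per rat. Per the paper's methods, the females sequenced were chosen for high RNA integrity and to span low to high estradiol levels. No such choice is described for the males. The labels do not give the litter or the cage of a rat, so the replicate error is the spread between rats whose relation to each other is not known. In a tissue punch, fewer cells of a type and less of a miRNA per cell cannot be told apart.

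A microRNA guides an Argonaute protein to messenger RNAs that pair with its seed, the bases near its 5′ end, and lowers the output of these messengers. The miR-30 miRNAs are cut from hairpins whose 5p arm is the main product, and they share 1 seed, so that their predicted targets largely coincide. Targets described for the family include Becn1, a gene of autophagy, Dll4, a Notch ligand of endothelium, and, in cortex, the neurotrophin gene Bdnf. The family is expressed widely, in neurons as well as in glia and vessels.

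The mature sequences of the members that were found in the rat miRNA table of RefSeq (GRCr8) are shown because their single differences decide which member a read was counted for, and because the shared seed, given in capitals, defines the family. With the same seed, miR-384-5p is not a miR-30 hairpin product by name.
miR-30a-5p: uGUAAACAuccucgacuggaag
miR-30c-5p: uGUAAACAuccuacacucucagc
miR-30e-5p: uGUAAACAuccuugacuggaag
miR-384-5p: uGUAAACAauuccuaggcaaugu
Counted from the 5′ end, miR-30a-5p and miR-30e-5p were equal at 21 of 22 positions and differed by C13U. miR-30c-5p matched either of them at 17 of 22 positions, with the first 12 bases equal, and miR-384-5p, with the first 8 bases equal, matched miR-30a-5p at 12 and miR-30c-5p and miR-30e-5p at 11 positions in all. Reads that carry a C-to-T change at 1 of the 4 other C positions of miR-30a-5p made up at most 0.0874% of its reads, whereas the reads counted for miR-30e-5p amounted to between 10.9% and 32.7% of those counted for miR-30a-5p. The size of miR-30e-5p was thus far above the level of single-base misreads of its neighbour.

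The opposite arms of 3 of these hairpins carry other seeds and are shown for the comparison of arms made further on, again with bases 2 to 8 in capitals.
miR-30a-3p: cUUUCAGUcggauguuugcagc
miR-30c-1-3p: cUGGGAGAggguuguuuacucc
miR-30c-2-3p: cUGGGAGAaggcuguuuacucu
In the annotation of GRCr8, the 6 hairpin genes lie in 3 places. Mir30c1 and Mir30e are neighbours on chromosome 5 within the span of Nfyc, which encodes a subunit of a CCAAT-binding transcription factor. Mir30b and Mir30d are neighbours on chromosome 7 within LOC102551574, and Mir30a and Mir30c2 are both on chromosome 9. Mature miR-30c-5p has the same bases in both of its hairpins. The files listed 99.9% of its reads under the miR-30c-2 hairpin, and this listing cannot say which hairpin the molecules came from.

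The libraries held between 3428930 and 11383055 reads assigned to miRNAs, of which the family made up between 1.24% and 5.73%, or 77282 to 393745 reads. Levels below are CPM, reads scaled to a library of 1000000 miRNA reads, or log2 normalised counts, which are scaled to a common library size with edgeR's TMM factors. Brain miRNAs were prominent in every library, with miR-124-3p, miR-128-3p and miR-138-5p at a summed 34803 CPM or more, while 4 miRNAs of liver and muscle (miR-122-5p, miR-1-3p, miR-133a-3p and miR-206-3p) summed to 48.6 CPM at most. Vessel miRNAs were lower with SI in males, without overlap as labelled. Of the 500 miRNAs tested, 13.8% did not overlap between GH and SI males in log2 normalised counts. The sum of miR-143-3p and miR-145-5p, markers of mural cells that were both read in every library, was 9499 to 16291 CPM in GH males and 4094 to 6300 CPM in SI males. In females it was 12048 to 23834 CPM with GH and 1707 to 14257 CPM with SI. The endothelial miR-126a-3p and miR-126a-5p, the latter at 0 in at least 1 library, summed to between 1003 and 1237 CPM in GH males and to between 261 and 647 CPM in SI males. In females they summed to 913 to 2697 CPM with GH and 66.5 to 1135 CPM with SI. The blood list of 3 miRNAs had higher medians in SI rats, with 1724 against 1142 CPM in males and 1752 against 1208 CPM in females, and the ranges overlapped. Of this list, miR-451-5p and miR-144-3p were at 0 in at least 1 library, and miR-486 alone was read in every library. The oligodendrocyte list (2293 to 5888 CPM over all rats) and the immune list (11 to 237 CPM) overlapped between GH and SI rats of both sexes, as did the list of choroid plexus and ependyma (794 to 16858 CPM, the highest value in an SI male). In these lists 1 of 3, 1 of 4 and 2 of 5 miRNAs were read in every library, and the others were at 0 in at least 1 library. The part of these markers in the values of the family was not tested.

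A pair of facts about the libraries also touch the results. SI libraries held more reads per distinct sequence, a sign of how often the same sequence was counted, with a median of 456 against 350 in males and 468 against 268 in females, and the ranges overlapped in both sexes. The number of distinct sequences itself did not overlap in females, with 17315 to 20913 with GH and 11399 to 16310 with SI, and it overlapped in males. Its part in the rarer read forms described further on was not tested. SI female 16, with 549 reads per distinct sequence, had the lowest level of miR-30a-5p, miR-30d-5p and miR-30e-5p of all 20 rats. The labels and the deposited files also name the libraries of SI male 17 and SI female 17 the opposite way round. The labels were followed, and for the housing contrasts of the members the values with these 2 rats exchanged are given where they alter a call or an overlap.

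Within a library the order of the members was nearly fixed. miR-30d-5p was read more often than miR-30a-5p in 20 of 20 rats, miR-30a-5p more often than miR-30c-5p in 16, miR-30c-5p more often than miR-30e-5p in 20, and miR-30e-5p more often than miR-30b-5p in 20. The exceptions, with more miR-30c-5p than miR-30a-5p, were SI males 15, 17 and 19 and SI female 16. By mean CPM over the 20 rats, miR-30d-5p ranked 17th of all miRNAs with 16816 CPM, miR-30a-5p ranked 22nd with 12198 CPM and miR-30c-5p ranked 30th with 6530 CPM. miR-30e-5p ranked 57th with 2605 CPM, and miR-30b-5p ranked 175th with 217 CPM. Although miR-30d-5p and miR-30a-5p kept their order in every rat, their group means lay within 1 SD of each other in some groups, as in SI females with 13801 ± 5779 and 9841 ± 5252 CPM (SD, n = 5).

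The first question of the design is how isolation changed the adBNST of males. miR-30c-5p was the member that passed the test, and it rose: its levels did not overlap between the groups, and the mean was 7900 ± 761 CPM in SI males and 5609 ± 318 CPM in GH males (SD, n = 5). miR-30e-5p was lower in SI males, at 1332 ± 320 against 3364 ± 492 CPM (SD, n = 5), and its adjusted p fell just short of the threshold. miR-30a-5p was also lower and miR-30b-5p higher in SI males, each without overlap of the groups as labelled, while miR-30d-5p overlapped. The family therefore did not move one way, and 1 of its 5 members was called among the 20 of 500 miRNAs called in males (4%).

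For miR-30c-5p the log2 normalised counts in GH males were 15.15, 14.86, 14.99, 15.23 and 15.09, and in SI males they were 15.80, 15.89, 15.76, 15.40 and 15.63. All 5 SI males lay above all 5 GH males by the labels. The log2 fold change was 0.64 (SE 0.15), a ratio of 1.56, with an adjusted p of 0.015 from edgeR's quasi-likelihood test with Benjamini-Hochberg adjustment over 500 miRNAs. With the libraries of the rats numbered 17 exchanged, the SI males began at 15.08 and overlapped the GH males, the log2 fold change was 0.59 and edgeR's adjusted p rose to 0.058. Leaving out 1 rat at a time, the call held in 16 of 20 edgeR fits, was lost without GH male 18, GH male 19, SI male 15 or SI male 20, and the adjusted p ranged from 0.0086 to 0.058.

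miR-30e-5p gave log2 normalised counts of 14.59, 13.95, 14.45, 14.48 and 14.11 in GH males and of 12.85, 13.35, 13.43, 12.51 and 13.36 in SI males. Again the groups did not overlap, with every SI male below every GH male. Its log2 fold change was −1.19 (SE 0.35), the largest in size among the members in males, and the adjusted p was 0.053 by edgeR. DESeq2, the tool named in the methods of the study, gave −1.21 and an adjusted p of 0.007 when run here. In the paper's own results, miR-30e-5p is listed as lower with SI in both sexes and miR-30c-5p as higher in males. When SI female 16, which is in neither group but adds to the shared estimate of spread, was left out, edgeR's adjusted p was 0.0011 with a log2 fold change of −1.23. A fit of the males alone gave an adjusted p of 0.0014 by edgeR. Among the 20 edgeR fits that left out 1 rat, miR-30e-5p was called in 2, those without SI female 10 or SI female 16. It was not called in 18, with an adjusted p of up to 0.12. SI male 17 had the lowest level of this member among males, and with the exchange of the rats numbered 17 the log2 fold change was −1.10 with an adjusted p of 0.083 by edgeR. The vessel markers given above were lower in the same SI males, which also had less miR-30a-5p and more miR-30b-5p and miR-30c-5p. A link between these values was not tested.

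miR-30a-5p, which differs from miR-30e-5p by the single base shown above, read 16.50, 16.37, 16.53, 16.59 and 16.44 on the log2 normalised scale in GH males and 15.68, 15.61, 16.19, 15.21 and 16.18 in SI males. The GH males were within a narrow band and the SI males spread below it. The log2 fold change of −0.67 (SE 0.29) did not pass, with an adjusted p of 0.16 by edgeR and 0.08 by DESeq2. In the males alone it passed, with −0.69 and an adjusted p of 0.016 by edgeR, and without SI female 16 it passed with −0.70 and 0.019. The latter was the 1 fit with a call among the 20 edgeR fits that left out 1 rat. Without SI male 17 the adjusted p was 0.31. With the rats numbered 17 exchanged, the log2 fold change was −0.59 with an adjusted p of 0.24 by edgeR.

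miR-30b-5p, the least abundant member, had log2 normalised counts of 10.23, 9.80, 9.62, 10.14 and 10.17 in GH males and of 10.39, 11.10, 11.04, 10.64 and 10.46 in SI males. Here the SI males were the higher group, without overlap by the labels. The log2 fold change was 0.75 (SE 0.27), with an adjusted p of 0.097 by edgeR and 0.049 by DESeq2. With the rats numbered 17 exchanged the SI males reached down to 9.63 and overlapped the GH males, and the log2 fold change was 0.61 with an adjusted p of 0.27 by edgeR. Behind these values stood between 481 and 1480 reads per GH male and between 1441 and 2577 per SI male, so this member was measured with far fewer reads than the others.

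The most abundant member, miR-30d-5p, was at 16.77, 16.85, 16.86, 17.11 and 16.78 in GH males and at 16.60, 16.53, 17.11, 16.01 and 16.68 in SI males, in log2 normalised counts. Its groups overlapped through SI male 22, which lay with the highest GH male. The log2 fold change was −0.25 (SE 0.25, adjusted p = 0.63 by edgeR).

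Thus 4 of 5 members did not overlap between GH and SI males as labelled, 2 with SI higher and 2 with SI lower, against 13.8% of all 500 miRNAs tested. With the rats numbered 17 exchanged, a count added after seeing the data, 2 of 5 members did not overlap (miR-30a-5p and miR-30e-5p, both lower with SI), against 13.2% of the 500 miRNAs. As labelled, the median log2 fold change of the 5 members was −0.25, against −0.01 over all miRNAs. DESeq2 called 3 members in males (miR-30b-5p, miR-30c-5p and miR-30e-5p), where it called 19.8% of the 303 miRNAs to which it gave an adjusted p.

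**Figure D1:**
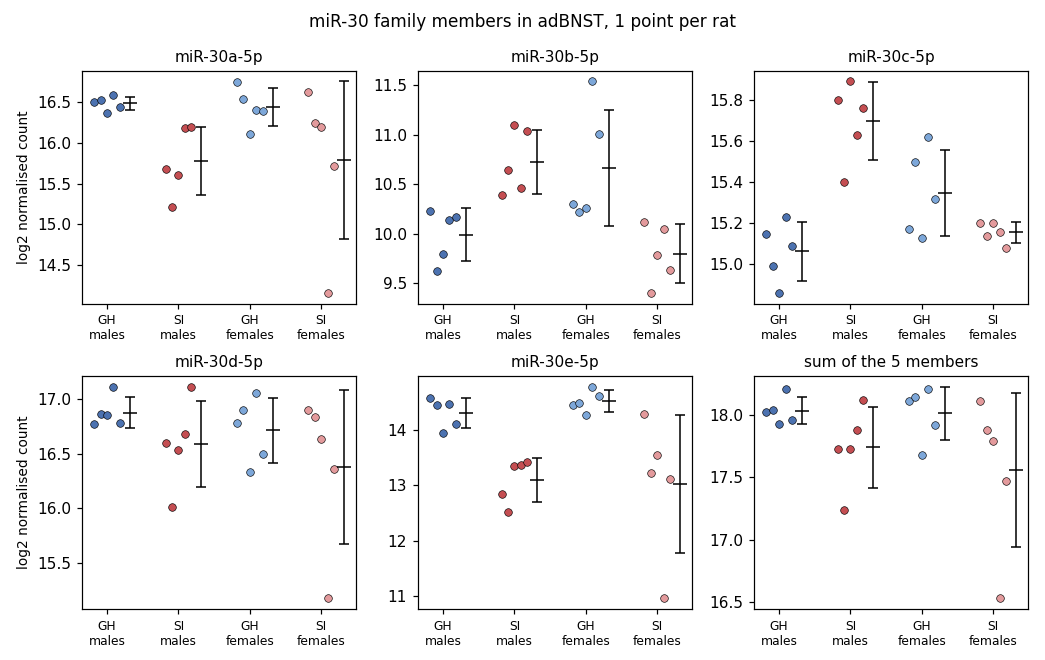
Log2 normalised counts of the 5 members and of their sum (vertical axes) in the 4 groups (horizontal axes), with 1 point per rat and the group mean ± SD beside the points (n = 5 rats). In males as labelled, SI rats lay above every GH rat for miR-30b-5p and miR-30c-5p and below every GH rat for miR-30a-5p and miR-30e-5p, and the low SI female point of miR-30a-5p (14.15), miR-30d-5p (15.18) and miR-30e-5p (10.95) is rat 16.

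The same question was asked in females, where no member passed edgeR's test. miR-30e-5p was again lower with SI, at 1599 ± 1101 against 4124 ± 979 CPM, and miR-30b-5p, which was higher in SI males, was lower in SI females, at 133 ± 31.4 against 310 ± 169 CPM (SD, n = 5). miR-30c-5p, the member called in males, overlapped between the groups of females, with 5353 ± 599 CPM in SI and 7256 ± 1565 CPM in GH rats (SD, n = 5). Over all miRNAs, edgeR called 0.4%, or 2 of 500, in females. At an unadjusted p under 0.05 there were 2 members (miR-30b-5p and miR-30e-5p) and 104 miRNAs in all, or 20.8%.

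miR-30e-5p read 14.27, 14.46, 14.79, 14.49 and 14.62 in GH females and 13.55, 14.30, 13.11, 13.22 and 10.95 in SI females, in log2 normalised counts. Only SI female 10 reached the range of the GH females, and SI female 16 was lowest by far. The log2 fold change was −1.18 (SE 0.35), close to the value in males, with an adjusted p of 0.084 by edgeR and 0.017 by DESeq2. It was −0.89 with an edgeR adjusted p of 0.1 without SI female 16. Without SI female 10 it was −1.52 and the adjusted p was 0.019 by edgeR. A fit of the females alone gave −1.17 and an adjusted p of 0.29 by edgeR.

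Log2 normalised counts of miR-30b-5p were 10.26, 10.30, 11.54, 10.22 and 11.01 in GH females and 9.79, 10.12, 9.63, 9.40 and 10.05 in SI females. All SI females lay below all GH females, and GH females 16 and 17 stood above the others. The log2 fold change was −0.95 (SE 0.27), with an adjusted p of 0.084 by edgeR and 0.017 by DESeq2. It was −0.66 without GH female 16 (adjusted p = 0.24 by edgeR) and passed without SI female 10 (adjusted p = 0.031 by edgeR). With the exchange of the rats numbered 17 it was −0.71 with an adjusted p of 0.17 by edgeR, and the groups then overlapped. This was the single member without overlap in females, where the groups did not overlap for 2% of the miRNAs tested. After the exchange it was 0 of 5 members, against 2.6%.

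The remaining members overlapped between GH and SI females. miR-30c-5p was at 15.13, 15.17, 15.62, 15.50 and 15.32 in GH females and between 15.08 and 15.20 in all 5 SI females, with a log2 fold change of −0.20 (SE 0.15, adjusted p = 0.5 by edgeR). miR-30a-5p ranged from 16.11 to 16.75 in GH females and from 14.15 to 16.63 in SI females, with a log2 fold change of −0.46 (SE 0.29, adjusted p = 0.39 by edgeR) that was −0.19 without SI female 16. For miR-30d-5p the log2 fold change was −0.24 (SE 0.25, adjusted p = 0.65 by edgeR), and it was −0.01 without that rat. DESeq2 called 2 members in females (miR-30b-5p and miR-30e-5p) among the 17.9% it called of 374 miRNAs. The median log2 fold change of the members was −0.46, against −0.13 over all miRNAs.

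Whether isolation acted differently in the sexes was tested as the interaction of housing and sex. miR-30b-5p was called, with an interaction of −1.69 (SE 0.38), the difference of the log2 fold change in females (−0.95) from that in males (0.75), and an adjusted p of 0.041 by edgeR. It was 1 of 2 miRNAs called of 500 (0.4%), the other being miR-34a-5p. The call was lost with the libraries of the rats numbered 17 exchanged (−1.32, adjusted p = 0.43 by edgeR), without SI female 16 (−1.70, adjusted p = 0.066) and in 17 of the 20 edgeR fits that left out 1 rat, all but those without GH female 12, 13 or 15. The interaction itself stayed between −1.80 and −1.41 in those 20 fits. miR-30c-5p had the next lowest p of all miRNAs for the interaction, with −0.84 (SE 0.21) and an adjusted p of 0.11 by edgeR and 0.0022 by DESeq2. For miR-30e-5p the interaction was 0.02 (SE 0.49), and it was 0.34 (SE 0.33) without SI female 16. For miR-30a-5p it was 0.21 (SE 0.41), and for miR-30d-5p 0.01 (SE 0.35).

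Females were then compared with males within each housing condition. In GH rats no member was called, and edgeR called 0% of 500 miRNAs, with 12 at an unadjusted p under 0.05. miR-30b-5p was the member among these 12, with a log2 fold change of 0.76 (SE 0.27), and DESeq2 gave it an adjusted p of 0.37. In SI rats edgeR likewise called no member and 0% of 500 miRNAs, with 50 at an unadjusted p under 0.05. miR-30b-5p had a log2 fold change of −0.94 (SE 0.27) and miR-30c-5p one of −0.55 (SE 0.15), both with an adjusted p of 0.19 by edgeR, and DESeq2 gave 0.087 and 0.041. The values of these contrasts share the rats of the housing contrasts and are not separate evidence.

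The reads of the 5 members were also summed. The log2 normalised count of the summed reads was 18.03 ± 0.11 with GH and 17.74 ± 0.32 with SI in males, and 18.01 ± 0.22 with GH and 17.56 ± 0.62 with SI in females (SD, n = 5). In SI males 4 of 5 rats lay below every GH male, and in SI females 2 of 5 lay below every GH female. As a share of the family, miR-30c-5p made up 11.9% to 13.7% of family reads in GH males and 19.5% to 28% in SI males. miR-30e-5p went from 6.33% to 9.24% in GH males and from 3.4% to 4.78% in SI males, and miR-30a-5p from 32.7% to 35.1% and from 22.9% to 30.6%. The share of miR-30d-5p differed little in means, with 44.9% in GH and 45% in SI males. In females, miR-30e-5p made up 7.97% to 10.2% with GH and 2.08% to 7.14% with SI, while miR-30c-5p overlapped, at 13% to 17.1% with GH and 13.3% to 38.5% with SI. Shares of a whole move together by construction, since more of one member leaves less for the rest.

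**Figure D2:**
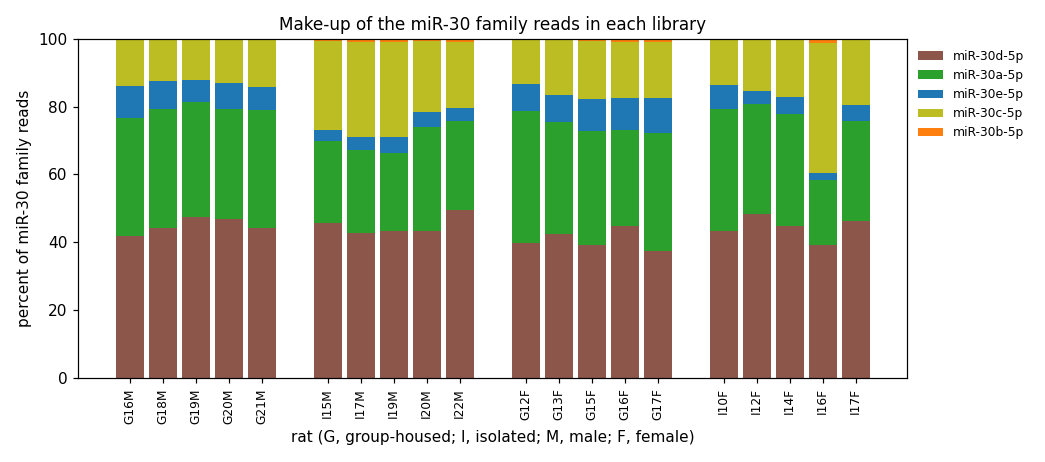
Percent of the miR-30 family reads taken by each member (vertical axis) in each of the 20 libraries (horizontal axis), as stacked bars that sum to 100%. The miR-30c-5p part was widest in SI males, at 19.5% to 28%, and in SI female 16, at 38.5%, and the miR-30e-5p part was narrower in SI than in GH males.

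Ratios of reads within a library do not depend on the scaling between libraries. miR-30c-5p and miR-30e-5p have neighbouring hairpin genes, Mir30c1 and Mir30e, but miR-30c-5p also has a hairpin gene, Mir30c2, on chromosome 9. The 3p arm of Mir30c2 was read more often in every library, with 648 to 2408 reads against 71 to 429 for that of Mir30c1. The log2 ratio of miR-30c-5p to miR-30e-5p was between 0.54 and 0.98 in GH males and between 2.28 and 2.95 in SI males. That is 1.68 reads of miR-30c-5p for each read of miR-30e-5p in GH males and 6.06 in SI males, as geometric means. In females this log2 ratio was 0.70 to 1.01 with GH and 0.90 to 4.21 with SI, where SI female 10 fell inside the GH range and SI female 16 had the highest value. The ratio of miR-30c-5p to miR-30a-5p, both with a hairpin gene on chromosome 9, was between −1.53 and −1.35 on the log2 scale in GH males and between −0.54 and 0.29 in SI males. miR-30b-5p and miR-30d-5p, from neighbouring genes on chromosome 7, had a log2 ratio of −7.24 to −6.54 in GH males and −6.22 to −5.37 in SI males, and −6.69 to −5.49 in GH and −7.43 to −5.13 in SI females. With the rats numbered 17 exchanged, the ratio of miR-30b-5p to miR-30d-5p overlapped in males (−6.73 to −5.42 with SI), and the ratios of miR-30c-5p to miR-30e-5p (1.96 to 2.95) and to miR-30a-5p (−0.64 to 0.29) did not. These ratios were chosen after the members' values were seen and were given no test.

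Over the 20 rats, which differ in housing and sex, the log2 normalised counts of some members varied together. Pearson's r was 0.93 between miR-30a-5p and miR-30e-5p, 0.90 between miR-30a-5p and miR-30d-5p, and 0.78 between miR-30d-5p and miR-30e-5p (n = 20). miR-30b-5p and miR-30c-5p had an r of 0.73, while the 6 values of either with miR-30a-5p, miR-30d-5p or miR-30e-5p were from −0.17 to 0.15. Within groups, as deviations from the group means, the first 3 values were 0.93, 0.93 and 0.87, that of miR-30b-5p with miR-30c-5p was 0.56, and the other 6 were from −0.10 to 0.40, the highest for miR-30c-5p with miR-30d-5p. Without SI female 16 (n = 19) the first 3 values over all rats were 0.85, 0.75 and 0.53, and that of miR-30b-5p with miR-30c-5p stayed at 0.73. Within groups and without that rat, miR-30c-5p had an r of 0.57 with miR-30d-5p and 0.48 with miR-30e-5p, near its 0.56 with miR-30b-5p. The libraries share their depth and scaling across members, so these are descriptions.

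The 3p arms of the same hairpins tell whether the opposite strand of a hairpin followed its 5p arm. None of the 6 arms was called in either sex by edgeR. miR-30e-3p stayed at 12.77, 12.87, 12.66, 12.63 and 12.66 in GH males and 12.93, 12.53, 12.90, 12.23 and 12.77 in SI males, in log2 normalised counts. Its log2 fold change was −0.03 (SE 0.21) in males and 0.05 (SE 0.21) in females, where the 5p arm had −1.19 and −1.18. miR-30a-3p had log2 fold changes of 0.39 (SE 0.23) in males and 0.35 (SE 0.23) in females, with the opposite sign to its 5p arm (−0.67 and −0.46). miR-30c-2-3p had 0.38 (SE 0.21) and 0.09 (SE 0.21), and miR-30c-1-3p 0.02 (SE 0.46) and 0.44 (SE 0.46). miR-30b-3p, with 19 to 330 reads per library, had 1.44 (SE 0.61, adjusted p = 0.16 by edgeR) in males and 0.57 (SE 0.60) in females, where it was −0.08 without SI female 16 and −0.71 by limma voom. miR-30d-3p had between 0 and 39 reads and is not described further.

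**Figure D3:**
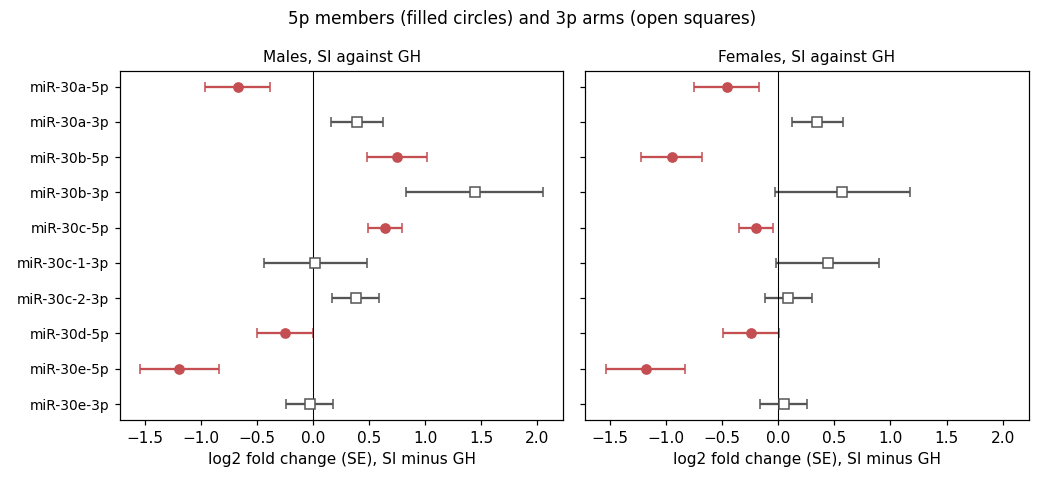
Log2 fold changes, SI minus GH, with their standard errors from edgeR (horizontal axes) for the 5p members (filled circles) and for the 3p arms except the rarely read miR-30d-3p (open squares), in males and females. The 5p arms of miR-30a and miR-30e lay left of 0 in both sexes (−0.67 and −1.19 in males) while their 3p arms lay at or right of 0 (0.39 and −0.03 in males).

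The ratio of the arms shows the same per rat. The log2 ratio of miR-30e-5p to miR-30e-3p was 1.59 ± 0.33 in GH males and 0.43 ± 0.34 in SI males, and 1.85 ± 0.46 in GH females and 0.30 ± 0.86 in SI females (SD, n = 5). The groups did not overlap in either sex, with 1.07 to 1.85 against −0.07 to 0.81 in males and 1.42 to 2.41 against −1.10 to 1.16 in females. For miR-30a the log2 ratio was 3.97 ± 0.27 in GH and 2.88 ± 0.38 in SI males (SD, n = 5), without overlap, and in females the groups overlapped (3.47 to 4.76 against 1.11 to 3.78). Such shifts were not particular to the family. Among the 42 hairpins with at least 100 reads of each arm in every library, the 5p to 3p ratio did not overlap between SI and GH in 21.4% in males and 7.14% in females. It was lower on average in SI rats for 29 of the 42 hairpins in males and 27 in females, with a median difference of −0.46 and −0.26 on the log2 scale. For miR-30c the ratio of the 5p arm to miR-30c-2-3p overlapped in both sexes, at 4.88 ± 0.33 in GH and 5.13 ± 0.40 in SI males (SD, n = 5).

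**Figure D4:**
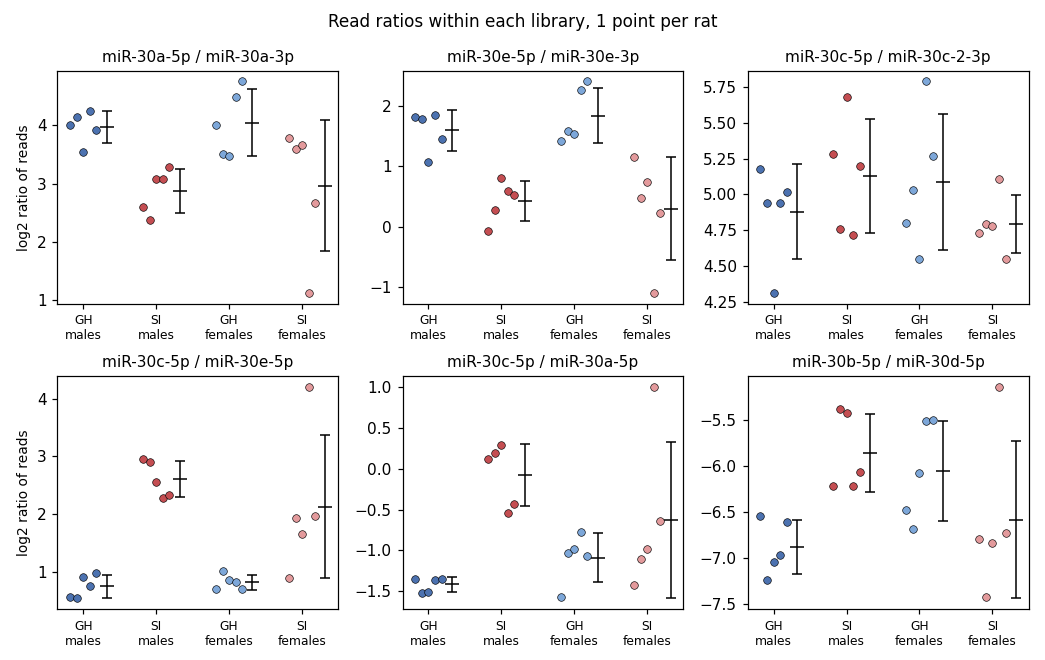
Log2 ratios of reads within each library (vertical axes) for 6 pairs of miRNAs in the 4 groups, with 1 point per rat and the group mean ± SD (n = 5 rats). The ratio of miR-30c-5p to miR-30e-5p separated SI from GH males by the widest gap (0.54 to 0.98 in GH and 2.28 to 2.95 in SI males), and that of miR-30c-5p to miR-30c-2-3p overlapped in both sexes.

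The forms in which the members were read, their isomiRs, are described next, because bases lost or gained at the 5′ end move the seed while changes at the 3′ end do not. Most reads of the family were longer at the 3′ end than the reference form. The commonest reads of the 3 members with a reference in RefSeq are given as DNA, with the seed in capitals.
miR-30a-5p: tGTAAACAtcctcgactggaagct
miR-30c-5p: tGTAAACAtcctacactctcagct
miR-30e-5p: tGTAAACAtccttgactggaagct
These 3 sequences, each 24 bases long, made up 64.8% of the reads of miR-30a-5p, 75.6% of miR-30c-5p and 71.4% of miR-30e-5p over the 20 libraries. The first and the last extend the reference by 2 bases found in the hairpin, and that of miR-30c-5p extends it by 1. miR-30d-5p was also read mostly with 2 further hairpin bases (58.4%), whereas 88.2% of miR-30b-5p reads were the reference form. The reference form itself made up 5.02% of miR-30a-5p, 15.3% of miR-30c-5p and 7.07% of miR-30d-5p reads. Counting every read by where its hairpin-matched part ended, 71.1% of miR-30a-5p, 64.6% of miR-30d-5p and 80.3% of miR-30e-5p ended 2 bases past the reference. For miR-30c-5p 79.7% ended 1 base past it, and for miR-30b-5p 94.5% ended at it.

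**Figure D5:**
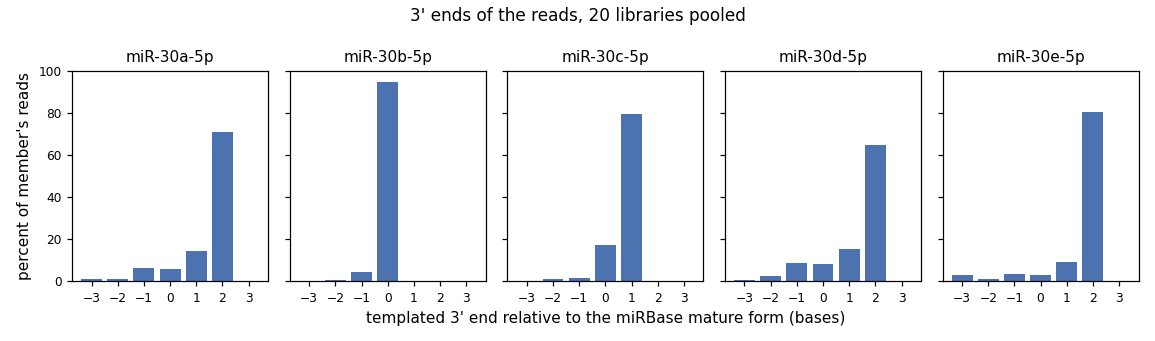
Percent of each member's reads in the 20 libraries together (vertical axis) by where the hairpin-matched part of the read ended, in bases from the 3′ end of the reference mature form (horizontal axis). miR-30a-5p, miR-30d-5p and miR-30e-5p peaked 2 bases past the reference (71.1%, 64.6% and 80.3%), miR-30c-5p 1 base past it (79.7%) and miR-30b-5p at it (94.5%).

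The seed itself was mostly kept, since 1.27% to 3.26% of each member's reads had a moved 5′ end. Added bases that do not match the hairpin were found at the 3′ end of 3.55% (miR-30c-5p) to 9.28% (miR-30d-5p) of reads.

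Of these forms, the shares of reads with a 3′ addition and with a moved 5′ end were tested for housing. For the share of reads with a 3′ addition, limma called no member in males or females, and it called 0% of the 232 miRNAs tested in males and 0% in females. For the share with a moved 5′ end, it called no member and likewise 0% of 232 miRNAs in males and 0% in females. Differences in log2 odds for the 3′ addition were between −0.18 and 0.08 in males and between −0.28 and −0.06 in females for the 4 members other than miR-30b-5p. For miR-30b-5p they were −2.75 (SE 1.61) in males and −2.31 (SE 1.61) in females, with adjusted p-values of 0.46 and 0.61 from limma. This member had a mean of 3.24% of reads with a moved 5′ end in GH males and 0.265% in SI males, and 2.15% in GH females and none in SI females. This rests on few reads, as 392 of 26991 reads of miR-30b-5p in all libraries had a moved end and the files list no count below 2. The log2 odds differences were −4.27 (SE 1.40) in males and −4.35 (SE 1.40) in females, with adjusted p-values of 0.33 and 0.2 from limma. The shares of the reference form, of each end position and of reads with a mismatch were not tested. Among them the reference form of miR-30d-5p made up 7.62% to 8.22% of its reads in GH males and 5.69% to 7.15% in SI males, without overlap. Other forms also separated in males, such as miR-30e-5p reads with 1 mismatch (2.05% to 2.85% with GH and 2.94% to 3.5% with SI). Both forms overlapped in females. There the miR-30d-5p reference form made up 6.64% to 9.73% with GH and 4.88% to 7.19% with SI. For miR-30e-5p reads with 1 mismatch it was 2.19% to 2.85% with GH and 1.61% to 3.38% with SI. These forms were picked after the values were seen, and no share over all miRNAs is given.

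At the level of single isomiRs, 308 forms of the members were tested among 10290, and edgeR called none of them in males or in females, where it called 0.00972% of all isomiRs in males and 0% in females. At an unadjusted p under 0.05 there were 37 forms of the members in males and 47 in females, among 937 and 949 of all 10290 isomiRs. In males these were 4 higher forms, all of miR-30c-5p, and 33 lower ones, and in females all 47 were lower. Of the 61 forms of miR-30c-5p tested, 47 were higher in SI males, with a median log2 fold change of 0.42, and 36 of the 43 forms of miR-30e-5p were lower, with a median of −1.15. In females, 54 of the 61 forms of miR-30c-5p and 40 of the 43 forms of miR-30e-5p were lower. The commonest form of miR-30e-5p shown above had log2 fold changes of −1.35 (SE 0.40) in males and −1.26 (SE 0.40) in females, and that of miR-30c-5p had 0.48 (SE 0.15) and −0.38 (SE 0.15). Forms of a member share their source, so these counts are not separate evidence. The isomiR counts were scaled with TMM factors of their own, so their fold changes cannot be set directly against those of the members. For miR-30c-5p the median over its forms was −0.66 in females and 0.42 in males on the isomiR scale. The member had −0.20 and 0.64 on the scale of the miRNAs. How much of this gap came from the scaling was not tested. No share of higher and lower forms over all 10290 isomiRs is given here.

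The miRNAs outside the family whose levels ran most like those of the members were found by Spearman's rank correlation over the 20 rats, among 126 miRNAs with at least 1000 reads in every library. For miR-30e-5p they were miR-27b-3p (rho = 0.94) and miR-186-5p (0.92), and for miR-30a-5p miR-487b-3p (0.91) and miR-27b-3p (0.85). miR-30d-5p ran most like miR-411-3p (0.72) and miR-487b-3p (0.72). For miR-30c-5p the closest were miR-361-5p (0.79) and miR-26b-5p (0.63), and for miR-30b-5p miR-361-5p (0.56) and miR-129-2-3p (0.55), the weakest likeness of the 5. The sum of the members ran most like miR-181a-5p (0.80) and miR-186-5p (0.77). None of these miRNAs passed edgeR's test for housing in either sex, with adjusted p-values from 0.098 to 0.92.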

How the data were processed

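Small RNA of the adBNST of 20 rats was sequenced after adapter ligation to 215 ng of total RNA and 22 PCR cycles. Per the paper's methods, the authors trimmed reads with cutadapt and aligned them to rat miRBase v21 with seqbuster. The deposited values are raw counts of reads per distinct sequence, with its miRNA, mismatch, additions and end changes; tool versions are not given in the sources used here. The lowest listed count was 2.

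Counts were summed per miRNA and per isomiR. Features with at least 10 counts in at least 5 libraries were tested in 1 model of the 4 groups with edgeR 4.0.16 (TMM, quasi-likelihood F test, Benjamini-Hochberg, threshold 0.05) in R 4.3.3. DESeq2 1.42.0, without that filter, was an alternative. Shares of read forms were compared as log2 odds (pseudocount 0.5, at least 100 reads in every library) with limma 3.58.1. Python 3.11.15 with pandas 2.3.3, numpy 2.4.6 and scipy 1.17.1 made the tables. Scripts were tested on simulated data. Log2 normalised counts add 1 before the logarithm. The reads carry no molecular identifiers here, so depth covers counting error only.

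Named were all members, all 3p arms of the miR-30 hairpins, other miRNAs with the same seed, the 2 miRNAs outside the family (1000 or more reads in every library) most like each member and the sum, and marker miRNAs; miR-34a-5p was added after its value was seen. Of the brain markers, miR-9 was listed under another name and not summed. miR-208a-3p, which was in the list with the liver and muscle miRNAs, had no reads listed. Members, lists and tests were chosen with earlier results of these data known. Of 40 pairs of rats within a group, none had counts alike within sampling noise (chi-square per degree of freedom of 139 or more). Other scalings, filters, tools, read subsets, each rat left out, the exchange of the rats numbered 17 and a block on animal number were tried. RefSeq tables of GRCr8 gave sequences, names and neighbours, and no coordinates are printed because the counts were made on hairpins.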

Additional observations from a re-analysis of the deposited data

Results flagged for a closer look

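The level of miR-30d-5p in GH male 20, a log2 normalised count of 17.11, stood farther above the other 4 GH males (16.77 to 16.86) than the spread among them would allow by Dixon's criterion for 5 values. It was the single such value among 24 combinations of a group with a member or the family sum, where chance gives about 1 in 20. The difference of the housing effect between females and males was −1.69 on the log2 scale for miR-30b-5p, with an adjusted p of 0.041 by edgeR, and it was the single member whose interaction passed the test.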

How the results depend on the processing

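The number of members called in males (1) was 2 with DESeq2's size factors, without the count filter, with at least 10 counts in every library and with reads without a mismatch only, 3 with DESeq2's test, 4 with limma voom and sample weights and with the males alone, and 0 with the rats numbered 17 exchanged. In females (0) it was 2 with DESeq2 and with 10 counts in every library, and 1 with limma voom. For the interaction (1) it was 0 with DESeq2's size factors, with the exchange and with reads at the reference 5′ end only, and 2 with DESeq2, limma voom and 10 counts in every library, where miR-30c-5p joined miR-30b-5p. For SI females against SI males (0) it was 1 with DESeq2. Of these settings, the share of all miRNAs called is given for DESeq2's test of housing only (19.8% in males and 17.9% in females). The other counts of members therefore cannot be set against the calls over all miRNAs. Limma voom, for the 3p arms a setting added after seeing the data, called 1 of them in males (miR-30b-3p), and 10 counts in every library gave 1 called isomiR of the members in males, miR-30c-5p with an added C (1.19, SE 0.28, adjusted p = 0.041 by edgeR). Leaving out each rat in turn gave 0 to 3 members in males, 0 to 2 in females, 0 to 1 for the interaction and 0 to 0 for both contrasts of sex, the 3p arms and the read-form shares; the difference of the sum ranged from −0.38 to −0.16 in males (−0.29 with all rats) and from −0.59 to −0.20 in females (−0.45). Of 765 member fold changes under an alternative, 684 kept sign and side of the threshold, 26 gained the call, 27 lost it and 28 changed sign. The changes of sign listed next also include those of 3p arms, which are not members and are not in these counts. The sign changed with the exchange for miR-30c-1-3p (−0.23) and miR-30e-3p (0.08) in males, miR-30e-3p in females (−0.06) and the interactions of miR-30d-5p (−0.10) and miR-30e-5p (−0.16), with 10 counts in every library for those interactions (−0.02 and −0.04) and for miR-30a-5p between the sexes in GH rats (0.01, also 0.01 with limma voom), with limma voom for miR-30b-3p in females (−0.71) and for miR-30c-1-3p (−0.20) and miR-30e-3p (0.05) in males, with reads of a single miRNA for miR-30c-1-3p in males (−0.03), and with reads at the reference 5′ end for the interaction of miR-30d-5p (−0.00). Leaving out a rat changed the sign at least once for values whose ranges were −0.12 to 0.04 (miR-30a-5p, sexes in GH), −0.20 to 0.13 (miR-30d-5p, sexes in SI), −0.10 to 0.53 (miR-30e-5p, sexes in SI), −0.08 to 0.28 and −0.30 to 0.34 (interactions of miR-30d-5p and miR-30e-5p), −0.08 to 0.84 (miR-30b-3p, females), −0.33 to 0.32 (miR-30c-1-3p, males), −0.01 to 0.19 (miR-30c-2-3p, females) and −0.12 to 0.03 and −0.05 to 0.22 (miR-30e-3p, males and females). The causes were not tested. Animal numbers shared between groups did not pair the rats (correlations of deviations from −0.304 to 0.090): with the replicate block, on 4 males and 6 females, 0 members were called in either sex, and 0 in the same rats without a block, a comparison added after seeing the data. The lowest reads, of miR-30b-5p (481 per library) and the 3p arms of miR-30b and miR-30d, limit those values.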

Other observations

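The seed of the family was also carried by miR-384-5p, whose hairpin gene is annotated on chromosome X beside Mir325 and which is known from brain. It was read 184811 times over the 20 libraries, fewer than miR-30e-5p (308932) and more than miR-30b-5p (26991). Its log2 normalised count was 13.30 ± 0.33 in GH males, 13.04 ± 0.35 in SI males, 13.26 ± 0.51 in GH females and 12.78 ± 0.64 in SI females (SD, n = 5). The log2 fold changes for SI against GH were −0.26 (SE 0.28) in males and −0.45 (SE 0.28) in females, with adjusted p-values of 0.68 and 0.39 by edgeR, and the groups overlapped in both sexes. Its 3p arm, miR-384-3p, gave −0.19 (SE 0.33) and −0.30 (SE 0.33). The log2 ratio of the 5p to the 3p arm was 0.47 ± 0.08 in GH males and 0.40 ± 0.13 in SI males, and 0.60 ± 0.15 in GH females and 0.47 ± 0.17 in SI females (SD, n = 5), so both arms of this hairpin were read at similar depth in every group.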
